A study of Homo sapiens with 8 samples.

Results

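The transcriptional response of NeuT cells to JG-98 was described from 4 of the 8 libraries of the series: 2 from NeuT cells left untreated and 2 from NeuT cells given 1 µM JG-98 for 12 h. All genes that passed a filter on low counts were members, which gave 17693 genes tested of 60617 in the deposited count table. NeuT and Empty cells are both MCF-10A, a spontaneously immortalized and non-tumorigenic line of human breast epithelium, and every group was grown with horse serum, epidermal growth factor, hydrocortisone, insulin and cholera toxin. The labels name the lines and do not say what the NeuT cells carry, how many clones they came from, or whether replicates were separate cultures. P-values therefore measure the spread between these libraries, which may be technical. The stated question of the series was how sensitive transformed cells are to Hsp70 inhibition, and the 4 libraries of Empty cells, untreated or given the same dose, entered the same fit. They shared its estimate of the spread, on which the calls in NeuT cells also rest, and served for the test of a difference between lines.

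Hsp70 chaperones bind unfolded stretches of other proteins and hand them on for folding or for degradation, and JG-98 is a small molecule that holds them in a state that no longer works with partner proteins such as BAG3. Cells that sense misfolded protein, lack of amino acids or lack of heme phosphorylate the initiation factor eIF2α, a step known as the integrated stress response (ISR). General protein synthesis then slows while translation of the transcription factor ATF4 increases, and ATF4 switches on genes for amino acid uptake, amino acid synthesis and tRNA charging.

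The NeuT libraries held 55050996 to 56203768 counts, and levels are given as CPM, the read count scaled to a common library size with the TMM correction for library composition. Fold changes are on the log2 scale, JG-98 over untreated, with the standard error (SE) from edgeR, and both stand in parentheses after the levels of a gene. A gene is described as risen or fallen where the quasi-likelihood test of edgeR, fitted to all genes, gave a Benjamini-Hochberg adjusted p-value under 0.05. With 2 libraries against 2, no exact permutation test of a single gene can reach 0.05, so each call rests on a spread shared across genes. Markers of basal breast epithelium were detected as 9 of 9 genes and summed to 21990 to 22820 CPM in the 4 libraries, led by KRT5 and KRT17. Of the hormone-responsive luminal markers ESR1, GATA3 and FOXA1 were present at 11.3 to 32.1 CPM, while AGR3 was at 0 and PGR and TFF1 were at or near 0. Leukocyte markers summed to 10.9 to 12.45 CPM, nearly all of it from CD14, with PTPRC, CD3E and CD68 at or near 0. Fibroblast markers summed to 82.3 and 75.9 CPM without the drug and to 83.0 and 68.4 CPM with it, most of it from DCN, and endothelial markers to 9.36 to 11.1 CPM, most of it from PECAM1. No marker was called by edgeR, DESeq2 or limma-voom, and 3 of the 22 tested had an unadjusted p-value under 0.05. Of the basal markers 4 were called without treated replicate 1.

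JG-98 changed 533 genes in NeuT cells, 3.01% of those tested. Of these, 355 rose (2.01% of genes tested) and 178 fell (1.01%). Rises were larger than falls. The median risen gene increased by 0.45 on the log2 scale, a fold of 1.36, and 56 risen genes reached a log2 fold change of 1. The median fallen gene changed by -0.31, a fold of 0.808, and 9 reached -1, of which 7 were nuclear copies of mitochondrial genes and the others DLX4 and a gene without a symbol, both chosen here after their values were seen. Most called genes were thus modest changes of well-measured genes: 206 of the risen and 157 of the fallen moved by less than 0.5, and the median called gene had a mean of 2296 counts per library when risen and 3341 when fallen, against 616 over all genes tested. Protein-coding genes made up 332 of the risen and 165 of the fallen. Both treated libraries lay on the same side of both untreated ones in 7932 of the 17693 genes tested and in all 533 called genes, which the call on these libraries nearly implies. In the plot of change against level, risen genes reach far above the band of other genes of their level and most fallen genes lie near its lower edge.

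**Figure D1:**
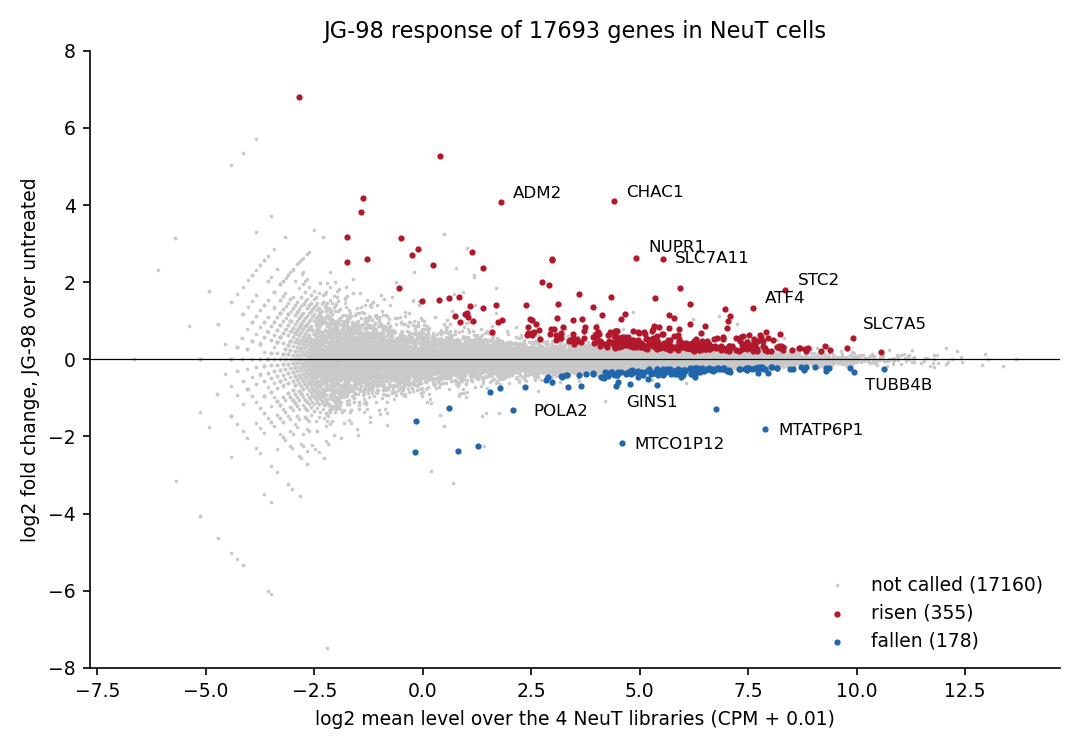
Each point is 1 of the 17693 genes tested, with the log2 mean level over the 4 NeuT libraries on the x axis (CPM + 0.01) and the log2 fold change of JG-98 over untreated on the y axis. The 355 risen genes (red) extend to a log2 fold change of 6.80, while all but 9 of the 178 fallen genes (blue) stay above -1.

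The count of calls depended on the libraries. Without treated replicate 1 it was 2133 (1171 higher, 962 lower), and without treated replicate 2 it was 367 (224 higher, 143 lower). Without untreated NeuT replicate 1 or 2 it was 132 or 143, and without untreated Empty replicate 1 or 2, which enter through the shared spread, it was 343 or 344. A fit of only the 4 NeuT libraries called 185 genes, 182 of them among the 533. Counts of list members given below without a library are to be read against the total of the same fit. That total was largest without treated replicate 1, so the shares called in the full fit do not apply there. Among the genes named by a fixed rule, 45 of 102 risen and 12 of 69 fallen were called in all the alternatives that tested them, a minimum log2 fold change of 1 aside. Of the 171, 63 and 68 kept their call without untreated NeuT replicates 1 and 2, 125 and 126 without the untreated Empty ones, 146 without either treated Empty library, 115 without treated NeuT replicate 2 and all without treated NeuT replicate 1.

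The 2 treated libraries differed in the size of the response. Over the 355 risen genes, the median log2 difference from the untreated mean was 0.34 in treated replicate 1 and 0.55 in treated replicate 2, and replicate 2 lay farther out for 328 of them (92.4%). Over the 178 fallen genes the medians were -0.26 and -0.36, with replicate 2 farther out for 148 (83.1%). Over all genes tested replicate 2 lay farther from the untreated mean for 60.1%. The untreated libraries were closer together: over the risen genes the median gap was 0.06 between untreated and 0.21 between treated libraries, and over the fallen genes 0.05 and 0.11.

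Transcription factors of the ISR showed the highest median of all lists, 1.04 over 11 tested members against 0.00 over all genes. Of the 11, 7 rose (63.6%, against 2.01% of genes tested) and 1 fell (9.09%, against 1.01%). ATF4 (ENSG00000128272, chromosome 22, 39519695 to 39522685), the central factor, was at 109.7 and 111 CPM in the untreated libraries and 249 and 310.5 CPM in treated replicates 1 and 2. Both treated libraries stood far above both untreated ones, with replicate 2 the higher, and the log2 fold change was 1.34 (SE 0.0838; adjusted p-value 1.67e-06 by edgeR). DDIT3 (CHOP, chromosome 12, 57516588 to 57521737), a partner of ATF4 that is linked to cell death under lasting stress, went from 2.32 and 2.17 CPM to 11.4 and 15.8 CPM. Other annotated genes cover 39.6% of its exonic bases. Its change was 2.60 (SE 0.163; adjusted p-value 1.58e-07 by edgeR). NUPR1 (chromosome 16, 28532708 to 28539174), a small stress-induced nuclear protein, was at 7.77 and 9.07 CPM in the untreated libraries and 43.3 and 60.0 CPM in treated replicates 1 and 2, with a wide space between the groups and a log2 fold change of 2.62 (SE 0.155; adjusted p-value 1.31e-05 by edgeR).

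The other risen factors were JDP2, TRIB3, ATF3 and CEBPG. JDP2, a repressor of the AP-1 type, was at 8.92 and 8.04 CPM without the drug and 19.6 and 23.8 CPM with it (1.36, SE 0.112), and CEBPG, a partner of ATF4 in binding DNA, was at 44.5 and 43.8 CPM without the drug and 67 and 83.9 CPM with it (0.77, SE 0.102). TRIB3, a pseudokinase that damps ATF4 and CHOP and is listed with them, was at 69.9 and 74.7 CPM without the drug and 152 and 204 CPM with it, and ATF3 at 8.21 and 8.39 CPM without the drug and 13.9 and 20.3 CPM with it. In each of the 4, replicate 2 was the higher treated library. ATF5, which like ATF4 is controlled through translation, went the other way, from 49.4 and 46.4 CPM to 39 and 39 CPM, a log2 fold change of -0.30 (SE 0.0704; adjusted p-value 0.0288 by edgeR). That call was lost without untreated NeuT replicate 1 (adjusted p-value 0.301) or 2 (0.130) and without untreated Empty replicate 1 (0.069) or 2 (0.0697). DDIT4, CEBPB and BATF2 were not called.

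Effector genes of the ISR rose in 14 of 23 tested members (60.9%, against 2.01% of genes tested), with none fallen. Their median was 0.53. The largest rise among well-counted genes was that of CHAC1 (chromosome 15, 40952962 to 40956512), an enzyme that breaks down glutathione. It was at 2.36 and 2.32 CPM in the untreated libraries and 28.2 and 51.6 CPM in treated replicates 1 and 2. Treated replicate 2 stood well above replicate 1, and the change was 4.09 (SE 0.422; adjusted p-value 0.0175 by edgeR), with a wide SE. That call was lost without untreated NeuT replicate 1 (0.149) or 2 (0.185) and without untreated Empty replicate 1 (0.0509), and in the fit of only the 4 NeuT libraries (0.0781). ADM2 (chromosome 22, 50481543 to 50486440), a peptide hormone of the adrenomedullin family, went from 0.384 and 0.39 CPM to 5.00 and 8.11 CPM (4.07, SE 0.29), and none of the alternatives run lost its call.

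GDF15 and STC2, both secreted, were among the risen effectors. GDF15 (chromosome 19, 18374731 to 18389176), a stress cytokine that acts on appetite centres, was at 25.8 and 27 CPM in the untreated libraries and 88.6 and 101 CPM in treated replicates 1 and 2. The treated libraries were closer to each other here than for CHAC1, and the change was 1.85 (SE 0.0963; adjusted p-value 1.58e-07 by edgeR). STC2, the glycoprotein stanniocalcin 2, was the most abundant member at 148 and 142 CPM without the drug and 429 and 589 CPM with it, and its log2 fold change was 1.81 (SE 0.149; adjusted p-value 0.00215 by edgeR). ULBP1, a surface ligand that natural killer cells recognise, was low, at 0.384 and 0.334 CPM without the drug and 1.68 and 2.26 CPM with it (2.45, SE 0.323). CTH, which makes cysteine from cystathionine, was at 2.63 and 2.73 CPM without the drug and 8.92 and 12.5 CPM with it, and SESN2, a brake on mTORC1 signalling, at 38.2 and 39.4 CPM without the drug and 82.7 and 125 CPM with it (1.42, SE 0.203). SESN2 was not called when any 1 of the Empty or untreated NeuT libraries was left out.

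**Figure D2:**
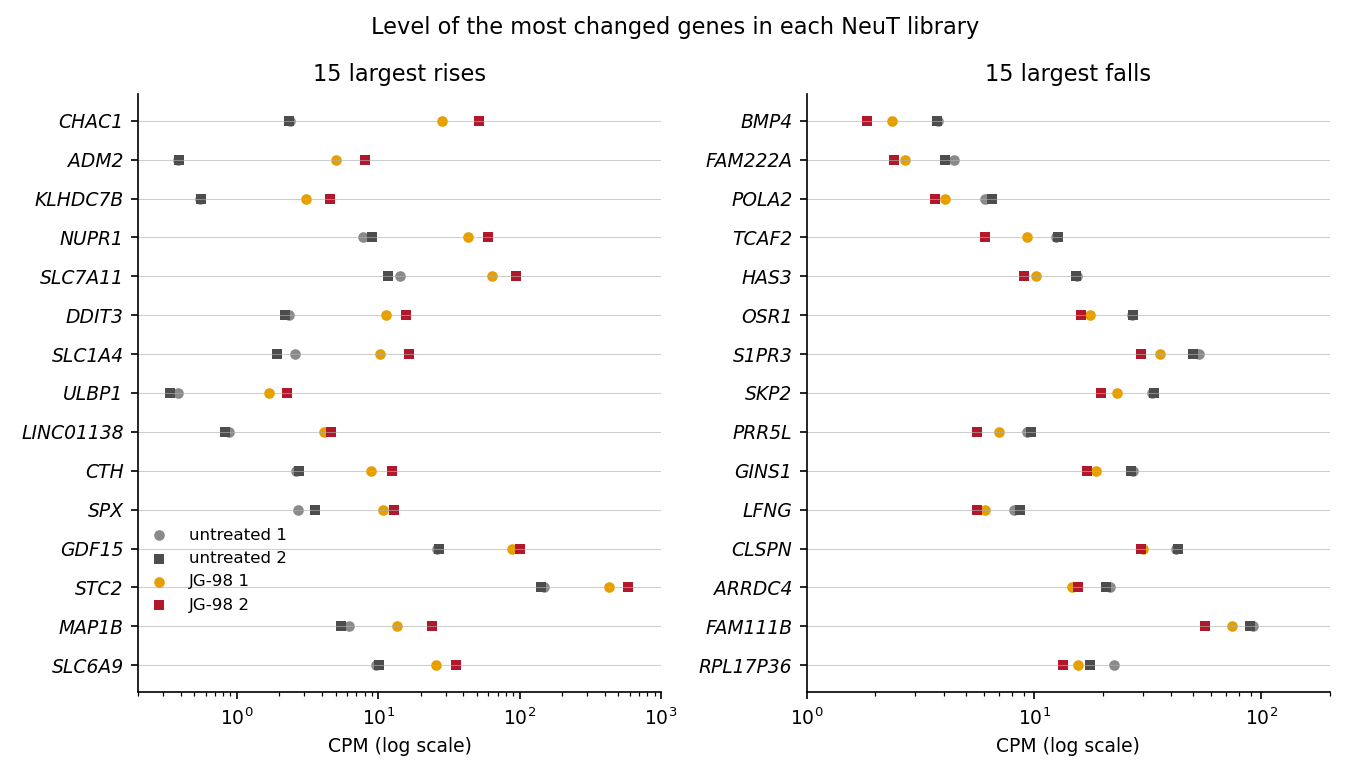
Level in CPM (log axis) of the 15 genes with the largest rises (left) and the 15 with the largest falls (right), nuclear copies of mitochondrial genes aside, among called genes with a symbol and an average of 50 counts or more, with 1 point for each NeuT library. Treated replicate 2 (red squares) is the farther treated library for all 15 rises, from CHAC1 to SLC6A9, and for every fall but that of ARRDC4.

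KLHDC7B, a kelch-domain protein outside the lists, had the third largest rise in the plot of the most changed genes, from 0.548 and 0.557 CPM to 3.07 and 4.57 CPM (2.78, SE 0.309). Promoters of the risen genes were searched for TGATGNAA, the core of the element that ATF4 binds with C/EBP partners, where N is any base. The window ran from 250 bases before to 50 bases after the start site, both strands were read, and matches were counted without regard to overlap with other motifs. RefSeq promoters (GRCh38.p14) matched by symbol to 271 of the 355 risen genes and 144 of the 178 fallen ones. TGATGNAA was present in 24 of 271 risen promoters (8.86%), 1 of 144 fallen promoters (0.694%), 216 of 11651 promoters of genes tested (1.85%) and 1003 of all 27305 promoters (3.67%). Among called members with a promoter it was in 6 of 10 tRNA synthetases, 3 of 8 amino acid transporters, 1 of 7 ISR factors and 1 of 13 ISR effectors. The 250 bases before the start site of 4 risen genes are shown because each holds the motif there, beginning 209 bases before the start in CHAC1, 151 in KLHDC7B, 191 in ATF3 and 187 in AARS1. Capitals mark the match or, where it lies on the other strand, its reverse complement.
CHAC1 (chr15:40953221-40953470, plus strand): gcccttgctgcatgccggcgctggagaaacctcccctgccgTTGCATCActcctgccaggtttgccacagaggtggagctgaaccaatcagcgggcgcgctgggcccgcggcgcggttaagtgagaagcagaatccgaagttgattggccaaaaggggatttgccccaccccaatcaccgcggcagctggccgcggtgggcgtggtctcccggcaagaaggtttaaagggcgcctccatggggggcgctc
KLHDC7B (chr22:50545649-50545898, plus strand): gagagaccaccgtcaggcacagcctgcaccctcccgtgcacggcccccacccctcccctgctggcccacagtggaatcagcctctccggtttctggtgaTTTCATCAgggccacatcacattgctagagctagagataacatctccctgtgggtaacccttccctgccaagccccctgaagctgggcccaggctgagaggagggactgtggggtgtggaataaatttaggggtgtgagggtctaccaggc
ATF3 (chr1:212565157-212565406, plus strand): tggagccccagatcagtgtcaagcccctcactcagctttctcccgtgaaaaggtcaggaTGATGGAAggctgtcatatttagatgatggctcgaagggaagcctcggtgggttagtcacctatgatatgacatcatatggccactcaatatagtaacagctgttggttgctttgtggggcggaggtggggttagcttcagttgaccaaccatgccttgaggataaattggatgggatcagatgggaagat
AARS1 (chr16:70289507-70289756, minus strand): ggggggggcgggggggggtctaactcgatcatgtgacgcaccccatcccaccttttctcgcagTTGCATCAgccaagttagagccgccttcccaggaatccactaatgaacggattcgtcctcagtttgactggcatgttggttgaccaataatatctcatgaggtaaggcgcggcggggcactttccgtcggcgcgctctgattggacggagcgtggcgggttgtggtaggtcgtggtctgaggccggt

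A match describes the letters of the window and not the binding of a factor. ADM2, with a rise of 4.07 beside 4.09 for CHAC1, held no match.

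Enzymes that make amino acids and one-carbon units rose in 10 of 19 tested members (52.6%, against 2.01% of genes tested). In that list 1 fell (5.26%, against 1.01%), and the median was 0.35. The 3 steps from glycolysis to serine rose together. PSAT1, the aminotransferase of the middle step, was at 89.2 and 86.2 CPM in the untreated libraries and 160.3 and 188 CPM in treated replicates 1 and 2, and its log2 fold change was 0.99 (SE 0.0724; adjusted p-value 1.27e-06 by edgeR). PHGDH, the first enzyme, was at 27.9 and 29.1 CPM without the drug and 47.8 and 55.2 CPM with it (0.85, SE 0.0802), and PSPH, the last, at 22.9 and 20.6 CPM without the drug and 34.7 and 37.3 CPM with it (0.73, SE 0.0796). The mitochondrial folate enzymes followed: ALDH1L2 was at 32.9 and 30.6 CPM without the drug and 61.1 and 78.6 CPM with it (1.14, SE 0.0969), MTHFD2 at 92.5 and 97 CPM without the drug and 153 and 178 CPM with it (0.80, SE 0.0707) and SHMT2 at 141 and 147 CPM without the drug and 177 and 191 CPM with it (0.36, SE 0.0577). The remaining rises were those of ASNS, PYCR1, GOT1 and GPT2. ASNS, asparagine synthetase, had a log2 fold change of 3.16 but only 0.128 and 0.148 CPM without the drug and 0.944 and 1.55 CPM with it, and 49.3% of its exonic bases lie in other genes, so its level is uncertain. ALDH18A1, which opens the route to proline, fell slightly, from 121 and 120.1 CPM to 106 and 98.5 CPM (-0.24, SE 0.0567), a call lost without any 1 of the untreated libraries of either line or treated replicate 2.

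Amino acid carriers rose in 9 of 16 tested members (56.2%, against 2.01% of genes tested) with none fallen, and their median was 0.43. SLC7A11 (chromosome 4, 138164097 to 138242349), which exchanges glutamate for cystine, was at 14.4 and 11.7 CPM in the untreated libraries and 63.4 and 95 CPM in treated replicates 1 and 2, a log2 fold change of 2.60 (SE 0.213; adjusted p-value 0.00244 by edgeR). SLC1A4, a carrier of alanine, serine and cysteine, went from 2.56 and 1.91 CPM to 10.3 and 16.6 CPM (2.59, SE 0.232), and SLC6A9, a glycine carrier, from 9.63 and 10.1 CPM to 25.8 and 35.2 CPM (1.63, SE 0.129). The abundant carriers moved less. SLC7A5, which imports large neutral amino acids, was at 771 and 789 CPM without the drug and 1046 and 1254 CPM with it (0.56, SE 0.0694), and its partner chain SLC3A2 at 201 and 200.1 CPM without the drug and 269 and 319 CPM with it (0.55, SE 0.072). SLC1A5 and SLC7A1 rose by 0.51 and 0.60, and SLC38A1 and SLC38A2 by 0.35 and 0.25.

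The enzymes that load tRNAs with amino acids were listed by compartment. Of 23 tested cytosolic tRNA synthetases 11 rose (47.8%, against 2.01% of genes tested), none fell and the median was 0.20. Of 16 mitochondrial ones none was called by edgeR (2 at an unadjusted p-value under 0.05, 1 by DESeq2) and the median was -0.06. GARS1, for glycine, was at 234 and 234 CPM in the untreated libraries and 343 and 397 CPM in treated replicates 1 and 2, and its log2 fold change was 0.66 (SE 0.0752; adjusted p-value 0.000178 by edgeR). CARS1, for cysteine, was at 30.1 and 32.3 CPM without the drug and 51.1 and 60.6 CPM with it (0.84, SE 0.0802), and AARS1, for alanine, at 170.0 and 171 CPM without the drug and 238 and 290.3 CPM with it (0.63, SE 0.0758). YARS1, MARS1, WARS1 and EPRS1 rose by 0.57, 0.54, 0.47 and 0.47, and SARS1, IARS1, TARS1 and NARS1 by 0.35, 0.33, 0.31 and 0.20. Whether the 2 compartments differ was not tested.

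Other lists of the translation machinery also held calls, against 2.01% risen and 1.01% fallen over all genes tested. Among 38 initiation factors 7.89% rose and none fell, namely EIF5 (0.30), EIF4EBP1 (0.28), an inhibitor of initiation, and EIF4B (0.23). Among 16 host transcripts of small nucleolar RNAs, which are degraded when they are translated, 12.5% rose. The median of these transcripts was 0.24 in treated replicate 1 and 0.001 in treated replicate 2, with replicate 2 the lower for 14 of 16. GAS5 was at 53.4 and 52.5 CPM without the drug and 69.5 and 65.2 CPM with it (0.35, SE 0.0682) and SNHG8 at 26.2 and 25.2 CPM without the drug and 33 and 31.4 CPM with it (0.33, SE 0.0743). Of 34 ribosome biogenesis genes 5.88% fell, RRS1 (-0.28) and MRTO4 (-0.28). EIF2AK1, the gene for the eIF2α kinase HRI, was at 149 and 141 CPM without the drug and 141 and 133 CPM with it (-0.08, SE 0.0561, not called), and of the 6 genes listed for eIF2α kinases and the mitochondrial relay to HRI none was called by edgeR, DESeq2 or limma-voom (1 at an unadjusted p-value under 0.05). None of the 7 genes called in these lists was called without untreated NeuT replicate 1 or 2. Without untreated Empty replicate 1 or 2 neither biogenesis gene was called and 1 host transcript was. Leaving out treated replicate 1 gave 8 higher initiation factors and 9 lower biogenesis genes, and leaving out treated replicate 2 gave 4 higher host transcripts.

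The counts of the ISR, amino acid and tRNA synthetase lists moved with the libraries. Without untreated NeuT replicate 1, untreated NeuT replicate 2, treated replicate 1 and treated replicate 2 in turn, the risen ISR factors numbered 6, 7, 8 and 7 and the risen ISR effectors 7, 7, 18 and 11. In the same order the risen amino acid enzymes were 6, 8, 10 and 9, the carriers 6, 6, 9 and 8, and the cytosolic tRNA synthetases 7, 7, 12 and 10. Without untreated Empty replicate 1 the risen ISR effectors numbered 9. In the fit without treated replicate 1, 2 cytosolic tRNA synthetases and 2 amino acid enzymes were lower.

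Of 13 tested Hsp70 and Hsp110 genes 1 rose (7.69%, against 2.01% of genes tested), HSPA13, a microsomal member of the family, which went from 31.7 and 27.2 CPM to 43.3 and 53.7 CPM (0.72, SE 0.106). HSPA8, the constitutive Hsp70 and a target of the drug, was at 3520.0 and 3466 CPM in the untreated libraries and 3200.0 and 3004 CPM in treated replicates 1 and 2. Both treated libraries lay below both untreated ones, and the change of -0.17 had an adjusted p-value of 0.0821 by edgeR and was not called. With DESeq2 (0.0192), limma-voom (0.0396), no filter on low counts (0.0429) and without treated replicate 1 (0.00144) it was called lower, and over all the alternatives its adjusted p-value reached 1. The authors' deposited table gives 0.0448. In the fit without treated replicate 1, 2 genes of the Hsp70 list were lower. BAG3, the cochaperone named in the title of the series, was at 244 and 230.5 CPM without the drug and 213 and 219.9 CPM with it (-0.13, SE 0.0527, not called). Of 29 cochaperones 3.45% rose, which was GRPEL2 alone (0.42), a mitochondrial exchange factor, a call lost without untreated NeuT replicate 1 or 2 or treated replicate 2. The inducible Hsp70 genes HSPA1A and HSPA1B are listed at 1 count or fewer in every NeuT library and were not tested. They are near-identical copies of each other, so their counts are uncertain.

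Genes of the endoplasmic reticulum (ER) moved in both directions. In the branch run by XBP1, which includes degradation of misfolded ER proteins, 4 of 18 tested genes rose (22.2%, against 2.01% of genes tested) and none fell. HERPUD1, an organiser of that degradation, was at 68.7 and 61.3 CPM in the untreated libraries and 93.8 and 116 CPM in treated replicates 1 and 2, a log2 fold change of 0.69 (SE 0.0852; adjusted p-value 0.000337 by edgeR). XBP1 itself was at 90.3 and 87.3 CPM without the drug and 119 and 142 CPM with it (0.56, SE 0.0755), its activating enzyme ERN1 at 8.92 and 10.2 CPM without the drug and 13.8 and 20.5 CPM with it (0.85, SE 0.17), and the ER cochaperone DNAJB9 at 15.4 and 13.6 CPM without the drug and 19.4 and 20.0 CPM with it (0.44, SE 0.106). Of 19 ER folding genes none rose and 3 fell (15.8%, against 1.01%), all by less than 0.3: PDIA4 (-0.25), CALR (-0.23) and HSP90B1 (-0.21). The falls were lost without either untreated NeuT library and numbered 8 without treated replicate 1. Without untreated Empty replicate 1 or 2 a single fall was left, and the rises of the XBP1 branch numbered 2 without either untreated NeuT library.

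Growth factor genes of the EGF family were among the risen. All 14 tested ERBB receptors, ligands and regulators had log2 fold changes above 0, 5 rose (35.7%, against 2.01% of genes tested) and none fell, with a median of 0.30. EREG (epiregulin), a ligand of the EGF receptor, was at 27 and 27.1 CPM in the untreated libraries and 37.8 and 47.4 CPM in treated replicates 1 and 2, and its log2 fold change was 0.65 (SE 0.0937; adjusted p-value 0.000751 by edgeR). ERRFI1, an inhibitor of the same receptor, was at 226 and 225 CPM without the drug and 308 and 325 CPM with it (0.49, SE 0.0529). NRG1, a ligand of ERBB3, rose by 0.52, its receptor ERBB3 by 0.35 and the ligand EPGN by 0.31. ERBB2 was at 87.9 and 89.7 CPM without the drug and 87.8 and 93.7 CPM with it (0.03, SE 0.0576, not called). Feedback genes of the ERK pathway rose in 5 of 19 tested members (26.3%) with a median of 0.14. DUSP5, a phosphatase that holds ERK inactive, was at 37.1 and 37.3 CPM without the drug and 55.8 and 75.2 CPM with it (0.82, SE 0.106), SPRY4 and SPRY2 rose by 0.45 and 0.33, and ETV5 and DUSP1 by 0.34 and 0.30. The ERBB rises numbered 2 without either untreated NeuT library and 9 without treated replicate 1, and the ERK rises 1 without either untreated NeuT library, 9 without treated replicate 1 and 3 without treated replicate 2 or either treated Empty library.

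Of 24 tested cytokines and chemokines 3 rose (12.5%), and of 15 NF-κB subunits and feedback genes 3 (20.0%), against 2.01% of genes tested. IL1A, an alarm cytokine of epithelium, was at 89.9 and 81.7 CPM in the untreated libraries and 159.5 and 213 CPM in treated replicates 1 and 2, a log2 fold change of 1.12 (SE 0.127; adjusted p-value 0.00216 by edgeR). CSF3, which drives neutrophil production, was at 15 and 16.3 CPM without the drug and 26 and 38.1 CPM with it (1.04, SE 0.14), and CCL20, which attracts lymphocytes, at 47.8 and 50.5 CPM without the drug and 66 and 76.2 CPM with it (0.53, SE 0.0877). The NF-κB rises were those of TRAF1 (1.39), ICAM1 (0.58) and BIRC3 (0.35). Over those 15 the median was -0.02 in treated replicate 1 and 0.28 in treated replicate 2, which puts the 2 libraries on opposite sides of 0. Without untreated NeuT replicate 1, untreated NeuT replicate 2, treated replicate 1 and treated replicate 2 in turn, the NF-κB rises numbered 0, 0, 6 and 0 and the cytokine rises 2, 3, 9 and 4. Without treated Empty replicate 1 or 2 a single NF-κB rise was left, and without untreated Empty replicate 1 or 2 the count was 2. Of 21 AP-1 and immediate early genes MAFF (0.44) and JUNB (0.22) rose (9.52%). Neither was called without an untreated NeuT library or treated replicate 2, 1 was called without any 1 Empty library, and 8 AP-1 genes were higher without treated replicate 1.

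Autophagy genes rose in 7 of 27 tested members (25.9%, against 2.01% of genes tested), with none fallen and a median of 0.09. MAP1LC3B, which coats the autophagosome membrane, was at 183 and 177 CPM in the untreated libraries and 252 and 283 CPM in treated replicates 1 and 2, a log2 fold change of 0.57 (SE 0.0665; adjusted p-value 0.000101 by edgeR). Its near-identical copy MAP1LC3B2 rose by 0.48, and reads of the pair may not be separable. GABARAPL1, of the same protein family, was at 23.2 and 21 CPM without the drug and 30.1 and 30.7 CPM with it (0.46, SE 0.0794), and the kinase ULK1, which starts the process, at 41.5 and 42 CPM without the drug and 52.5 and 65.9 CPM with it (0.50, SE 0.0985). The cargo receptor SQSTM1 was at 408 and 404 CPM without the drug and 451 and 520.2 CPM with it (0.26, SE 0.0635), and CALCOCO2 and WIPI1 rose by 0.24 and 0.46. The autophagy rises numbered 2, 1, 10 and 3 without untreated NeuT replicate 1, untreated NeuT replicate 2, treated replicate 1 and treated replicate 2, and 4 without untreated Empty replicate 1 or 2.

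Among genes of cell death and oxidative stress, PMAIP1 (NOXA), which promotes death at the mitochondrion, was at 24.1 and 24.9 CPM without the drug and 33.7 and 44.7 CPM with it (0.68, SE 0.111). BCL2L2, a protective relative of BCL2, rose by 0.32. HMOX1, heme oxygenase, was at 15.4 and 15 CPM in the untreated libraries and 21.5 and 25.2 CPM in treated replicates 1 and 2, a log2 fold change of 0.62 (SE 0.0941; adjusted p-value 0.00116 by edgeR), and BACH1, its heme-sensitive repressor, rose by 0.36. HMOX1 and SLC7A11 rose among 21 tested NRF2 targets (9.52%, against 2.01% of genes tested), whose median was -0.02. Of 23 tested p53 targets GDF15 and SESN2 rose (8.70%) and PLK2 fell (-0.26; 4.35%, against 1.01% of genes tested). The 2 that rose are also on the ISR list. With BIRC3, the list of the BCL2 family and death receptors held 3 risen genes of 24 tested (12.5%). That number was 1 without any 1 Empty library, untreated NeuT replicate 2 or treated replicate 2, it was 0 without untreated NeuT replicate 1, and it was 8 without treated replicate 1. BACH1 was called in the full fit and without treated replicate 1, but lost without any other library. PLK2 was lost without any 1 untreated library of either line or treated NeuT replicate 2. In the absence of treated replicate 1, 8 p53 targets and 5 NRF2 targets were higher.

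Of 19 genes of epithelial and mesenchymal identity 3 rose (15.8%, against 2.01% of genes tested), none fell, and 14 had log2 fold changes above 0. CLDN1, a tight junction protein, was at 163 and 161 CPM without the drug and 208 and 261 CPM with it (0.54, SE 0.0804), SNAI2 rose by 0.28 and ESRP1 by 0.21. Of 18 keratins KRT80 rose (0.24; 5.56%), and of 20 squamous genes PPL (0.35; 5.00%). Among the keratins 14 had log2 fold changes below 0 and 4 above, and among the squamous genes 15 were above 0 and 5 below. When untreated NeuT replicate 1 or 2 was left out, a single identity gene and neither KRT80 nor PPL was called, and KRT80 was lost without any library but treated replicate 1. Without treated replicate 1, 5 identity genes were higher and 4 keratins lower, and without treated replicate 2, 3 squamous genes were higher.

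Genes of DNA replication formed the largest group among the fallen. Of 38 tested members 14 fell (36.8%, against 1.01% of genes tested), none rose and all 38 had log2 fold changes below 0, with a median of -0.25. In bulk RNA, fewer cells in S phase and less RNA per cell cannot be told apart. GINS1, a subunit of the replicative helicase, was at 27.2 and 26.8 CPM in the untreated libraries and 18.7 and 17.1 CPM in treated replicates 1 and 2. The treated libraries lay close together, well below the untreated ones, and the log2 fold change was -0.59 (SE 0.079; adjusted p-value 0.000404 by edgeR). CLSPN (claspin), which links stalled forks to the checkpoint, was at 42.3 and 43.2 CPM without the drug and 30.2 and 29.6 CPM with it (-0.52, SE 0.0675), and POLA2, a subunit of the polymerase that starts each strand, at 6.1 and 6.51 CPM without the drug and 4.07 and 3.65 CPM with it (-0.71, SE 0.125). Other annotated genes cover 39.4% of the exonic bases of POLA2, and its call was lost without untreated NeuT replicate 2 (adjusted p-value 0.0752).

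Loading of the helicase was represented by CDC6, CDT1 and ORC1. CDC6 was at 80.9 and 83.9 CPM in the untreated libraries and 70.3 and 55.2 CPM in treated replicates 1 and 2, a log2 fold change of -0.39 (SE 0.0845; adjusted p-value 0.0207 by edgeR), and here treated replicate 2 was clearly the lower. The call was lost without untreated NeuT replicate 1 (adjusted p-value 0.106) or 2 (0.194). CDT1 was at 70.1 and 73.5 CPM without the drug and 58.7 and 53.4 CPM with it (-0.36, SE 0.0648) and ORC1 at 25 and 26.4 CPM without the drug and 21.7 and 16.7 CPM with it (-0.42, SE 0.0995). The helicase subunits MCM4, MCM5, MCM7 and GINS4 fell by 0.26, 0.30, 0.31 and 0.37 on the log2 scale. RRM2, which makes deoxynucleotides, was at 277 and 279 CPM without the drug and 241 and 195 CPM with it (-0.35, SE 0.0742), and FEN1, which trims flaps between fragments, at 66.6 and 72.7 CPM without the drug and 57.8 and 49.6 CPM with it (-0.37, SE 0.0731). DTL and CCNE2, regulators of S phase entry, fell by 0.38 and 0.44.

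The list median was -0.16 in treated replicate 1 and -0.37 in treated replicate 2, and replicate 2 was the lower for 37 of 38 genes. With treated replicate 1 left out, 28 members fell. Without treated replicate 2 the number was 8, and without untreated NeuT replicate 1 or 2 it was 5 or 3. GINS1 and CLSPN were called in all the alternatives but the minimum fold change of 1.

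**Figure D3:**
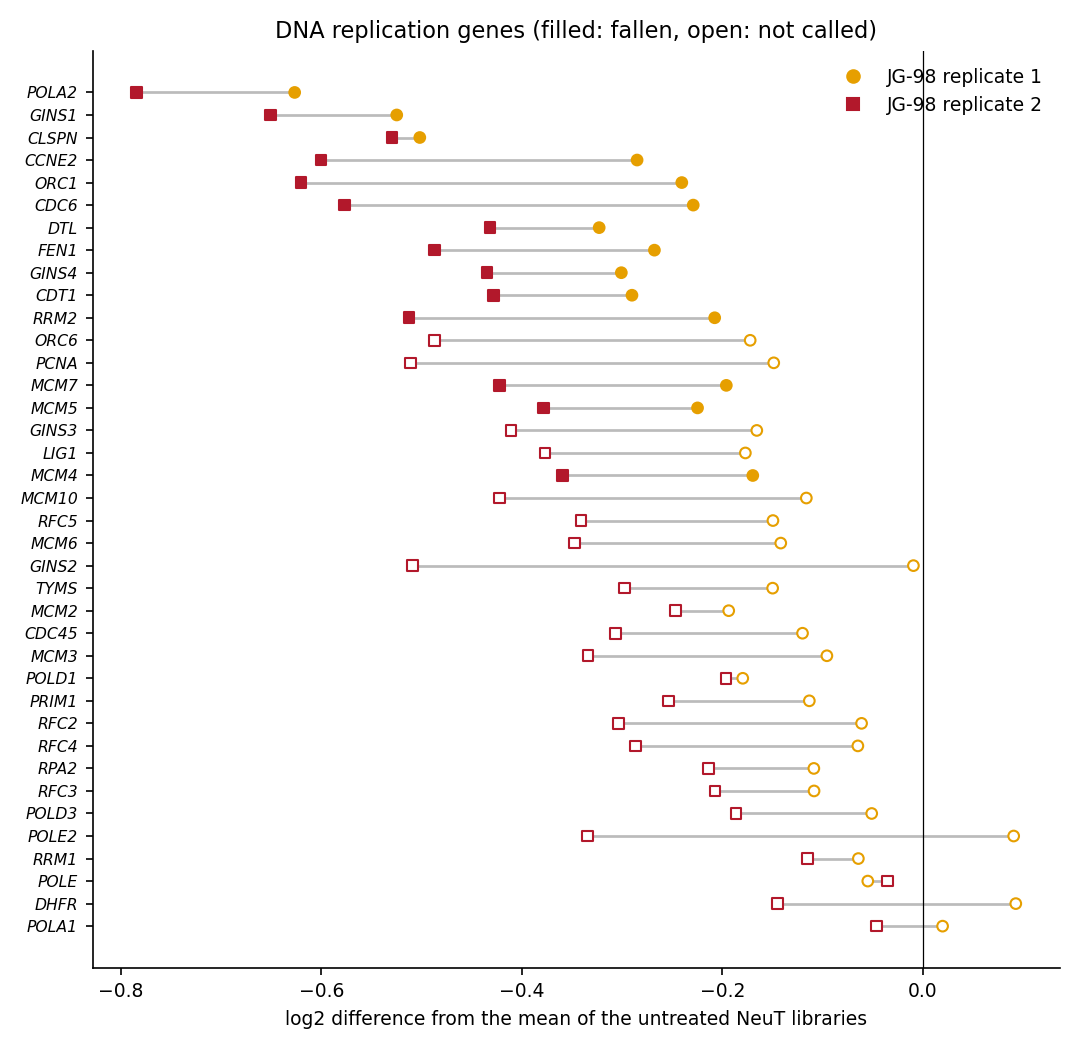
Log2 difference of each treated NeuT library from the mean of the untreated NeuT libraries for the 38 DNA replication genes tested, 1 row for each gene, with filled symbols for the 14 fallen genes and open symbols for those not called. Treated replicate 2 (squares) lies to the left of replicate 1 (circles) for 37 of the 38.

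The fallen promoters were searched in the same way for TTTCGCGC or TTTGGCGC, forms of the site of E2F factors, which drive S phase genes. A match was present in 7 of 144 fallen promoters (4.86%), 4 of 271 risen ones (1.48%), 224 of 11651 of genes tested (1.92%) and 322 of all 27305 (1.18%). Of the 10 fallen replication genes with a promoter in the table, 5 held a match. CCAAT, the box bound by NF-Y, was in 75 of 144 fallen promoters (52.1%), 112 of 271 risen ones (41.3%) and 4219 of those of genes tested (36.2%), against 35.7% of all promoters. The 250 bases before the start of POLA2, MCM7 and DTL are shown because the E2F match lies within them, beginning 53, 9 and 8 bases before the start. Capitals mark the match.
POLA2 (chr11:65261712-65261961, plus strand): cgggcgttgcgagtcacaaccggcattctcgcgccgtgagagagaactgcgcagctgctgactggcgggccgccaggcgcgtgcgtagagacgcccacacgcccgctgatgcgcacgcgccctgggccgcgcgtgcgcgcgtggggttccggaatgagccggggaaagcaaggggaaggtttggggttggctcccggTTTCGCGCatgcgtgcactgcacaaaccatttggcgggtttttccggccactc
MCM7 (chr7:100101398-100101647, minus strand): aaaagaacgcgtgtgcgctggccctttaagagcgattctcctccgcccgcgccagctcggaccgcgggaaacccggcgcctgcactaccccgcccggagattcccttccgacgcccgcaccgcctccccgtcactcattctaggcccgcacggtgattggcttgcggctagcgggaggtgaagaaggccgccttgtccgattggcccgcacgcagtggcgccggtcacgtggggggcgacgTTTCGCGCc
DTL (chr1:212035498-212035747, plus strand): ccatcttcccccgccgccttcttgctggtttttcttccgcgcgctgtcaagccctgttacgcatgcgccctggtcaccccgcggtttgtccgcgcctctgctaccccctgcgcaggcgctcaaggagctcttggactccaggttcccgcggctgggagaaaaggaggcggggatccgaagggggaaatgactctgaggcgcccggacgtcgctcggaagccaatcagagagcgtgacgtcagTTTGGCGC

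Genes of later cell cycle steps also fell. Of 41 tested mitosis genes 7 fell (17.1%, against 1.01% of genes tested) and none rose, with a median of -0.13. CDC20, an activator of the ubiquitin ligase that ends mitosis, was at 83.8 and 90.0 CPM in the untreated libraries and 71.5 and 59.5 CPM in treated replicates 1 and 2, a log2 fold change of -0.41 (SE 0.075; adjusted p-value 0.00661 by edgeR). Without untreated NeuT replicate 2 its adjusted p-value was 0.130. ANLN, which builds the cleavage furrow, was at 238 and 235 CPM without the drug and 202 and 170.5 CPM with it (-0.34, SE 0.0654), and CCNB1, the mitotic cyclin, at 71.1 and 73 CPM without the drug and 62.9 and 55.6 CPM with it (-0.28, SE 0.0617). BIRC5, CDCA8 and INCENP, partners in the chromosomal passenger complex, fell by 0.35, 0.33 and 0.31, and PLK1 by 0.22. The median was -0.05 in treated replicate 1 and -0.24 in treated replicate 2. The number fallen was 1, 0, 19 and 3 without untreated NeuT replicate 1, untreated NeuT replicate 2, treated replicate 1 and treated replicate 2, and 4 without untreated Empty replicate 1 or 2. Of 14 tested G1 cyclins and inhibitors CCNE1 (-0.32) and CCNE2 fell (14.3%). Neither was called without an untreated NeuT library or treated replicate 2, 1 was called without untreated Empty replicate 1 or 2, and 7 genes of that list were lower without treated replicate 1. SKP2, the ubiquitin ligase subunit that removes the inhibitor p27, belongs to none of these lists and was among the largest falls, from 33 and 33.6 CPM to 23.3 and 19.6 CPM (-0.63, SE 0.0807). H2AX, a histone of the DNA damage response, fell (-0.34, lost without an untreated NeuT library).

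Other large falls were spread over genes of unlike roles. FAM222A and TCAF2 fell by 0.74 and 0.71. The call of FAM222A was lost without untreated NeuT replicate 1 (adjusted p-value 0.144) or 2 (0.0712) and without treated replicate 2 (0.0704), and that of TCAF2 without the same libraries (0.139, 0.186 and 0.118). S1PR3, a receptor of sphingosine 1-phosphate, was at 53 and 49.9 CPM in the untreated libraries and 35.9 and 29.4 CPM in treated replicates 1 and 2, with both treated libraries far below both untreated ones and a log2 fold change of -0.66 (SE 0.0826; adjusted p-value 0.000241 by edgeR). OSR1, a zinc finger transcription factor, went from 27 and 27.2 CPM to 17.7 and 16.1 CPM (-0.68, SE 0.0864), and HAS3, which makes hyaluronan, from 15.5 and 15.3 CPM to 10.2 and 8.99 CPM (-0.68, SE 0.107). BMP4, a growth factor, was at low levels of 3.78 and 3.75 CPM without the drug and 2.37 and 1.83 CPM with it (-0.84, SE 0.2). Its call was lost without untreated NeuT replicate 1 (adjusted p-value 0.188) or 2 (0.213) and without treated replicate 2 (0.180). LFNG, which modifies Notch, fell by 0.53, a call lost without untreated NeuT replicate 1 (0.0662) or 2 (0.147) and without treated replicate 2 (0.0511). In the fit of only the 4 NeuT libraries, too, FAM222A, TCAF2, BMP4 and LFNG were not called.

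Some metabolic and structural genes fell, while most members of their lists were not called: 1 of 23 glycolysis genes (4.35%), 4 of 25 cholesterol genes (16%) and 4 of 24 actin and tubulin genes (16.7%) fell, against 1.01% of genes tested. PFKFB3, which makes the activator of phosphofructokinase, was the single called gene of 23 in glycolysis, at 71.7 and 71.1 CPM in the untreated libraries and 53.5 and 51 CPM in treated replicates 1 and 2, a log2 fold change of -0.45 (SE 0.0668; adjusted p-value 0.000974 by edgeR). Without treated replicate 1, 11 genes of that list were lower. Of 25 tested cholesterol genes HMGCS1 (-0.27), MVD (-0.28), IDI1 (-0.26) and SQLE (-0.25) fell, all of them enzymes between acetyl-CoA and squalene epoxide. The list had a median of -0.13, similar in treated replicates 1 (-0.12) and 2 (-0.14), and no cholesterol gene was called without untreated NeuT replicate 1 or 2, while 6 fell without treated replicate 1. Of 24 actin and tubulin genes TUBA1A (-0.38), TUBB4B (-0.32), TUBA1C (-0.21) and TUBB6 (-0.21) fell. TUBB4B was at 1089 and 1104 CPM without the drug and 918 and 841 CPM with it and was the second most abundant fallen gene after CAV1, the coat protein of caveolae, at 1724 and 1759 CPM without the drug and 1537 and 1368 CPM with it (-0.26, SE 0.0565). Tubulin genes are similar in sequence, and reads may be shared among them. TUBA4A, which is not on the list and is among the most abundant fallen genes, fell by 0.23. Without untreated NeuT replicate 1 none of the 4 was called, without untreated NeuT replicate 2 a single one was, and without untreated Empty replicate 1 or 2 the count was 2. TUBA1C and TUBB6 were not called without treated replicate 2 either.

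Nuclear genes that serve mitochondrial RNA fell in 4 of 28 tested members (14.3%, against 1.01% of genes tested), with a median of -0.10. POLRMT, the RNA polymerase of mitochondria, was at 65 and 66.5 CPM in the untreated libraries and 49.4 and 51.6 CPM in treated replicates 1 and 2. Both treated libraries were lower by about the same amount, and the log2 fold change was -0.38 (SE 0.0641; adjusted p-value 0.00258 by edgeR). The adjusted p-value was 0.0665 without untreated NeuT replicate 2. TRMT10C, FASTKD2 and ELAC2, which cut or stabilise mitochondrial transcripts, fell by 0.32, 0.25 and 0.24. The falls numbered 1, 0, 8 and 2 without untreated NeuT replicate 1, untreated NeuT replicate 2, treated replicate 1 and treated replicate 2, 1 without untreated Empty replicate 1 or 2 and 2 without treated Empty replicate 1 or 2.

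Nuclear copies of mitochondrial genes had the lowest median of any list, which is given as a description because few passed the filter. Of 404 such pseudogenes counted by the authors, 9 passed the filter on low counts, and 7 of these fell (77.8%, against 1.01% of genes tested). The median over those that passed was -1.60. MTATP6P1 (chromosome 1, 633696 to 634376), the most abundant, was at 369 and 374 CPM in the untreated libraries and 119 and 92.8 CPM in treated replicates 1 and 2, a log2 fold change of -1.81 (SE 0.185; adjusted p-value 0.0124 by edgeR). That call was lost without untreated NeuT replicate 1 (adjusted p-value 0.0506) or treated replicate 2 (0.127). MTCO1P12 was at 41 and 37.4 CPM without the drug and 10.9 and 6.7 CPM with it (-2.16, SE 0.183), MTND2P28 at 154 and 151 CPM without the drug and 70.4 and 54.2 CPM with it (-1.29, SE 0.0982) and MTND4P12 at 4.53 and 3.47 CPM without the drug and 0.962 and 0.722 CPM with it (-2.25, SE 0.232). Treated replicate 2 was the lower in all 9. In Empty cells the median over the same 9 was -1.79. These pseudogenes are close copies of mitochondrial genes, and the reads may come from either.

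The response differed between the lines at 1 gene of 17693 (0.00565%) by the interaction term of the edgeR fit. On simulated data this test recovered 48% of genes changed in NeuT alone by log2 0.5 and 83% of those changed by log2 1. Differences between the lines can therefore be missed. Both lines have their own untreated libraries. An unadjusted p-value under 0.05 was found for 1378 genes, and DESeq2 called 19. Without treated NeuT replicate 1 the count was 777 and without replicate 2 it was 15, and without untreated NeuT replicate 1 or 2 or treated Empty replicate 1 it was 3, 6 or 2. The gene was TXNIP (ENSG00000265972, chromosome 1, 145992435 to 145996600), which blocks glucose uptake and the antioxidant thioredoxin. In NeuT cells it was at 432 and 415 CPM in the untreated libraries and 478 and 508 CPM in treated replicates 1 and 2, a small rise with a log2 fold change of 0.22 (SE 0.0532; adjusted p-value 0.0316 by edgeR). In Empty cells it was at 149 and 154 CPM without the drug and 103 and 100.4 CPM with it, a log2 fold change of -0.58 (SE 0.0548; adjusted p-value 7.51e-05 by edgeR). The difference between the changes was 0.80 (SE 0.0764; adjusted p-value 0.000183 by edgeR). The rise in NeuT alone was less secure: it was lost without untreated NeuT replicate 1 (adjusted p-value 0.185) or 2 (0.434), treated replicate 2 (0.112), and untreated Empty replicate 1 (0.0806) or 2 (0.0812). ARRDC4, a related arrestin with a similar glucose response, fell in NeuT from 21.6 and 20.7 CPM to 14.7 and 15.6 CPM (-0.48, SE 0.0876), and in Empty it was at 21.2 and 22.3 CPM without the drug and 12 and 10.9 CPM with it. That fall was lost without untreated NeuT replicate 1 (adjusted p-value 0.1). The difference between the lines had an adjusted p-value of 0.448 by edgeR and was not called.

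**Figure D4:**
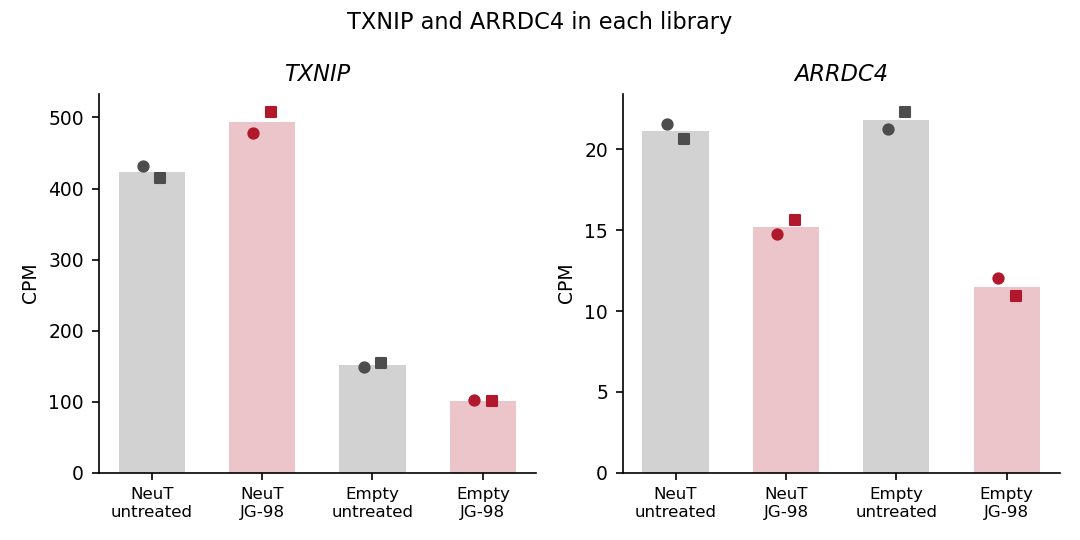
Level of TXNIP (left) and ARRDC4 (right) in CPM in each of the 8 libraries, with points for replicates 1 (circles) and 2 (squares) and bars for the mean of each group. TXNIP is higher with JG-98 in NeuT and lower with it in Empty, while ARRDC4 is lower with JG-98 in both lines.

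Several lists held no called gene. Only 3.01% of all genes tested were called, so these counts show nothing particular to the lists. The fit without treated replicate 1 called many more genes in all, so its counts below cannot be set against that share. By edgeR none was called among 14 genes of the Hsp90 system, 8 subunits of the TRiC chaperonin, 31 proteasome genes, 15 mitochondrial chaperones and proteases, 74 ribosomal protein genes and 56 nuclear respiratory chain genes. Unadjusted p-values under 0.05 were found for 1, 1, 5, 4, 2 and 3 of them, and DESeq2 and limma-voom called none. Among 22 lysosome genes 3 had such a p-value and DESeq2 and limma-voom called 1 each, and among 26 laminin, integrin and desmosome genes 5 had one and DESeq2 called 1. The same held with no call by any of the 3 tools for 30 interferon-stimulated genes (5), 20 collagen and matrix genes (2), 16 YAP targets (3) and 21 matrix proteases (6). Without treated replicate 1, edgeR called 20 ribosomal protein genes and 12 respiratory chain genes, all lower, 8 proteasome genes, all lower, and 12 laminin, integrin and desmosome genes and 7 YAP targets, all higher. It also called 7 matrix proteases, 6 collagen and matrix genes and 3 interferon-stimulated genes.

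Set apart by library, the lists with the most calls had medians on the same side of 0 in both treated libraries and farther out in replicate 2. The ISR factors had medians of 0.74 and 1.29 in treated replicates 1 and 2, the ISR effectors 0.42 and 0.65, the amino acid carriers 0.30 and 0.55, and the cytosolic tRNA synthetases 0.19 and 0.23. Some lists stood on opposite sides of 0. Ribosomal protein genes had medians of 0.06 and -0.10, with replicate 2 the lower for 71 of 74, and respiratory chain genes 0.06 and -0.13, with replicate 2 the lower for 55 of 56. Laminin, integrin and desmosome genes had medians of 0.00 and 0.16, with replicate 2 the higher for 24 of 26.

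**Figure D5:**
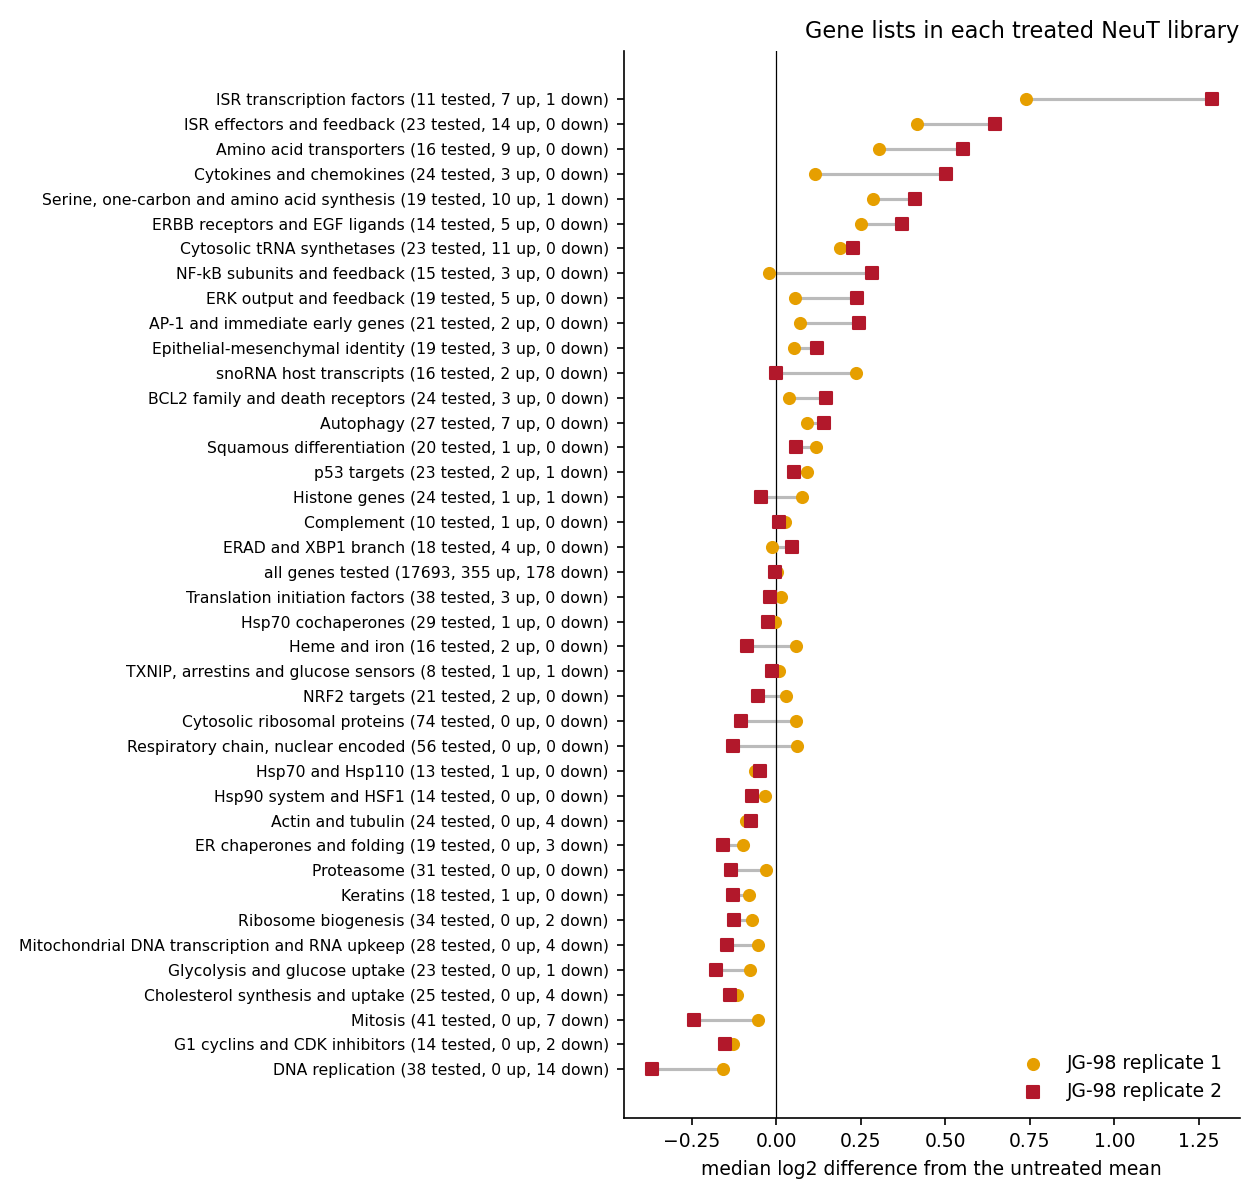
Median log2 difference from the mean of the untreated NeuT libraries for gene lists with a called member and for 4 large or related lists without one, with circles for treated replicate 1 and squares for treated replicate 2. ISR means integrated stress response, and nuclear copies of mitochondrial genes are not drawn. The ISR factors lie farthest to the right (0.74 and 1.29) and DNA replication farthest to the left (-0.16 and -0.37).

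This gap between the treated libraries moved with gene length. Genes tested were split by exonic length into 3 classes of nearly equal size, and the median log2 difference of treated replicate 2 from replicate 1 was -0.08 in the shortest class (median 1565 bases), -0.01 in the middle and 0.06 in the longest (median 8310 bases). The untreated libraries gave 0.02, 0.01 and -0.01. Among risen genes the gap was much the same at every length, 0.21, 0.20 and 0.22 from shortest to longest, whereas among fallen genes it was -0.19, -0.09 and -0.05. The part of length, or of RNA quality that can act through it, in the calls was not tested.

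The genes that differed most between the 2 treated libraries were not responders. The 8 lowest in replicate 2 relative to replicate 1 included PARN, a poly(A) ribonuclease, at 0.292 and 0.241 CPM without the drug and 4.77 and 0.315 CPM in treated replicates 1 and 2. The 8 highest included ABR at 0.329 and 0.631 CPM without the drug and 0.537 and 6.53 CPM in treated replicates 1 and 2 and the kinase CDK7 at 0.475 and 0.612 CPM without the drug and 0.555 and 5.11 CPM in treated replicates 1 and 2. None of the 16 was called, and in each of these 3 genes 1 library stood apart from the other 3.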

How the data were processed

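Total RNA from MCF-10A cells labelled NeuT or Empty, with or without 1 µM JG-98 for 12 h, was sequenced after poly(A) selection, in 2 libraries per group. The authors deposited raw read counts per Ensembl gene; per the submitters' processing notes, Trim Galore 0.5.0, HISAT2 2.1.0 and featureCounts 1.6.3 were used with hg38/GRCh38. The strand setting, annotation release and handling of reads that match several places are not given in the sources used here. The authors also deposited log2 fold changes and p-values in the layout of limma, per the file headers. The authors' deposited table held 525 genes with an adjusted p-value under 0.05, of which 494 were also called here.

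Counts of all 8 libraries were fitted by group with edgeR 4.0.16 in R 4.3.3 (TMM factors, robust quasi-likelihood test, filterByExpr with a minimum count of 10 and total of 15). P-values were adjusted by Benjamini and Hochberg over all genes tested, and genes under 0.05 were called. The SE is the log2 fold change divided by the square root of F. DESeq2 1.42.0 and limma-voom 3.58.1 were alternatives, with others on scaling, filter, blocking and single libraries. Log2 CPM used a prior count of 2. On simulated data 78% of genes changed by log2 0.5 and 95% of those changed by log2 1 in NeuT were recovered, with 6 false calls over 17693 genes. The simulation gave each gene the same spread in every group and changed only genes averaging at least 50 counts. In the data the spread was wider between treated NeuT libraries (chi-square per gene 22.0) than between untreated ones (4.63). The rates may therefore differ in the real data. A count of 0 allows up to 3 counts, or 0.0534 to 0.0545 CPM in the NeuT libraries, from counting error alone.

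Gene symbols were taken from the supplied name table, types from GENCODE 29, which shares 58542 gene identifiers with the table (82.3% with the same coordinates), and promoters from RefSeq (GRCh38.p14). Of 1262 symbols in the lists 6 had no match. Named genes were the 15 largest rises and 15 largest falls averaging at least 50 counts (nuclear copies of mitochondrial genes apart), called members of each list, the most abundant members of lists without a call, the 10 most abundant risen and 10 most abundant fallen genes, the 8 genes at each end of the gap between treated libraries, genes called for the interaction, and ERBB2, BAG3, HSPA8, EIF2AK1 and ATF4. Members and lists were chosen with earlier results of these data known. Whether replicate numbers pair the libraries was checked by the correlation of replicate differences across genes: it was -0.101 between the NeuT groups over 9551 genes and at most 0.244, between the treated groups of the 2 lines. Since most pairs of groups gave values near 0, the numbers were not used to pair.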

Additional observations from a re-analysis of the deposited data

Results flagged for a closer look

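TXNIP was the single gene whose change with JG-98 differed between NeuT and Empty cells by the interaction term of the edgeR fit. The difference of the log2 fold changes was 0.80 (SE 0.076, adjusted p-value 0.00018 by edgeR), with 432 and 415 CPM without the drug and 478 and 508 CPM in treated replicates 1 and 2 in NeuT cells. All 4 treated and untreated NeuT values were above those of Empty cells.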

How the results depend on the processing

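With a minimum log2 fold change of 1, 18 genes were called in NeuT (14 higher, 4 lower). With no filter on low counts 1000 were (632 and 368), and with only the 4 NeuT libraries 185 (153 and 32). DESeq2 called 309 lower genes and 423 higher, so that 57.8% of its calls were higher against 66.6%, and in the fit of 4 libraries 82.7% were. Leaving out each library in turn gave 132 to 2133 calls, 102 to 1171 higher and 30 to 962 lower. The interaction count was 19 with DESeq2, 3 without robust estimation, 0 with the minimum fold change (1378 genes had an unadjusted p-value under 0.05 without it), 138 with no filter, 2 with total counts, and 1 to 777 without each library. The cause of these shifts was not tested, except that fewer libraries or another set of genes entered some fits. With the replicate number as a block, 593 genes were called in NeuT and 1 for the interaction. With the numbers crossed in NeuT, chosen after seeing the data because the correlation was under -0.1, the count was 454. In that crossed fit 149 of the 171 named called genes kept their call and 22 lost it. Of the 171 named called genes, 167 kept their call with the block (CHAC1, SESN2, BIRC3 and CALCOCO2 lost theirs), 171 without treated replicate 1, 115 without treated replicate 2, and 63 and 68 without untreated NeuT replicates 1 and 2. No named gene that was called reversed its sign under any of the alternatives run. With DESeq2 none of the named genes lost its call: 166 were called and 5 had no adjusted p-value. Replicate libraries differed by more than counting error, with a chi-square per gene of 4.63 untreated and 22.0 treated. No fit at reduced depth was run, so what depth limits was not tested.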

Other observations

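Of the called genes, 261 risen and 126 fallen belonged to none of the lists, and those named here were chosen after their values were seen. PCK2, the mitochondrial enzyme that makes phosphoenolpyruvate, was at 19.7 and 21 CPM without the drug and 52 and 71.2 CPM with it, and UPP1, which splits uridine, at 184 and 182 CPM without the drug and 282 and 320.0 CPM with it (0.72, SE 0.0615). NAMPT, the first enzyme of NAD salvage, rose by 0.40. XPOT, which exports tRNAs from the nucleus, rose by 0.44, and GTPBP2, a factor that rescues stalled ribosomes, by 0.65. PTGS2 (cyclooxygenase 2) was at 5.39 and 5.62 CPM without the drug and 8.96 and 14.3 CPM with it (1.08, SE 0.179), the growth factor BMP6 at 16.2 and 15 CPM without the drug and 26.1 and 43.8 CPM with it (1.17, SE 0.207), and FGF2 rose by 0.50. The stress sensors GADD45A and GADD45B rose by 0.86 and 0.73, and the growth arrest gene IFRD1 was at 36 and 35.1 CPM without the drug and 64.8 and 84.5 CPM with it (1.07, SE 0.139).

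Of the fallen genes outside the lists, CDC25A, a phosphatase that starts S phase, was at 37 and 34.7 CPM without the drug and 28.6 and 24 CPM with it (-0.45, SE 0.0788), and UHRF1, which keeps methylation on new DNA, at 51.1 and 55.9 CPM without the drug and 39.6 and 40.5 CPM with it (-0.42, SE 0.0649). CHAF1A, which places histones on new DNA, fell by 0.41 and BARD1, the partner of BRCA1, by 0.39. LMNB1, a nuclear lamina protein, was at 72.3 and 72.6 CPM without the drug and 58.7 and 50.2 CPM with it (-0.41, SE 0.0665). IRS1, an adaptor of the insulin receptor, fell by 0.36, and PTHLH, a secreted hormone, by 0.38.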
